A study of Mus musculus with 18 samples.

Results

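The genes described here are 10 immediate early genes: Fos, Fosb, Jun, Junb, Egr1, Egr2, Egr3, Nr4a1, Dusp1 and Ier2. They were taken by name, and every probe that the platform's annotation gives to one of these symbols was used, which made 12 of the 45281 probes on the array. RNA from 5 kinds of mouse immune cell and from whole brain was hybridised to 18 Illumina BeadChip arrays, with 3 biological replicates in each of 6 groups. The groups were naive CD4 T cells (resting helper T cells before their first antigen), their differentiated Th1 and Th2 subsets (makers of interferon gamma and of interleukin 4, respectively), B cells, dendritic cells and brain. All samples carry the strain label C57/BL6; immune samples carry both sexes in their label, and brain samples were male. The labels call the immune samples wild type and name no treatment or genetic change in any group. The age of the mice, the number pooled, how cells were isolated and how Th1 and Th2 cells were obtained do not appear in the labels or other sources used here. In such bulk samples, fewer cells that express a gene and less RNA per cell cannot be told apart.

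Immediate early genes are transcribed within minutes of a stimulus, without new protein synthesis, when MAP kinase and calcium signals reach transcription factors that already sit at their promoters, such as SRF with its ternary complex partners and CREB. The Fos and Jun proteins pair with each other to form AP-1, the Egr proteins are zinc finger factors, Nr4a1 is an orphan nuclear receptor, Dusp1 is a phosphatase that switches MAP kinases off again, and Ier2 is a small nuclear protein. In lymphocytes these genes respond to antigen receptors, in dendritic cells to microbial and stress signals, and in neurons to synaptic activity.

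Promoters of 7 of the 10 genes were searched in RefSeq's table for the mouse build GRCm38.p6, each as the 250 bases before an annotated transcription start, to show which letters the members have in common. Egr1, Egr3 and Ier2 were not searched, nor were bases further upstream, so a site missing below may still lie there. The 4 shown are those of Fos (chr12:85473640-85473889, plus strand), Junb (chr8:84978749-84978998, minus strand), Dusp1 (chr17:26508473-26508722, minus strand) and, of the 5 annotated starts of Egr2, the first of 3 with equally many matches (chr10:67537619-67537868, plus strand). Fos and Dusp1 were highest in dendritic cells in what follows, Egr2 in Th2 cells, and Junb separated the immune cells from brain. Capitals mark the cAMP response element TGACGTCA, its shorter core TGACG and the CArG box of serum response elements, on either strand, and each line runs 5′ to 3′ up to the base before the start.
Fos: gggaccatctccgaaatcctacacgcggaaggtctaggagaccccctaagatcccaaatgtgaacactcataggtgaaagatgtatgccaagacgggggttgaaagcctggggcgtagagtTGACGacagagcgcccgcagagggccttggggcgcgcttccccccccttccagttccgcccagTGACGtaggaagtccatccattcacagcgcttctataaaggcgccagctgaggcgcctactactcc
Junb: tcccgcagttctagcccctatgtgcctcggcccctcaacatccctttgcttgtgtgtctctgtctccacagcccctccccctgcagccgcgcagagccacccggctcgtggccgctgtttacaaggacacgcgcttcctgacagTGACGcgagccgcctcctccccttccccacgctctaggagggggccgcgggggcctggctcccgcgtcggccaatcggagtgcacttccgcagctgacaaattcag
Dusp1: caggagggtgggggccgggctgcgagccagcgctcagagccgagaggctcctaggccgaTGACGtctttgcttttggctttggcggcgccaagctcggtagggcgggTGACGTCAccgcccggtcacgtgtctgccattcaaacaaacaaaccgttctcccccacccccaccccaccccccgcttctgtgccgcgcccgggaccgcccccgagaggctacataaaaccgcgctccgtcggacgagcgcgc
Egr2: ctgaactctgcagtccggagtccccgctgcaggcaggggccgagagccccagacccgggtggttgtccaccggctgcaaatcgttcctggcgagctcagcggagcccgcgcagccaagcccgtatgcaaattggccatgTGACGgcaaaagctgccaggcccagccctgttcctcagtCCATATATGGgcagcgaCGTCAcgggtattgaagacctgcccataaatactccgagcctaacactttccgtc
The 7 genes have 11 windows, 5 of them before starts of Egr2. The core TGACG was found in 8 of the 11 windows, from 6 genes (Dusp1, Egr2, Fos, Fosb, Junb and Nr4a1), while 17.8% of all 32851 windows of this length in the table hold it. The full element, which contains the core on both strands, was found in 1 of the 11, that of Dusp1, and in 1.55% of all windows. A CArG box was found in 4 of the 11, all before starts of Egr2, and in 1.47% of all windows. Several of these Egr2 windows overlap and hold the same CArG box and the same cores. The counts of windows therefore repeat some sites and are not counts of independent sequences. The AP-1 site TGACTCA was in 0 of the 11 and in 4.46% of all windows. These are matches of letters in 250 bases and show no binding.

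Signals are given as log2 of the background-corrected and quantile-normalized intensity, a level, and changes as differences of group means on that scale with the SE of the fit. A probe was called detected on an array at a detection p under 0.01. Of the 12 probes, 10 were detected on at least 3 arrays, and they represent 9 of the 10 genes. Nr4a1 did not pass: its only probe was detected on 1 of 18 arrays, dendritic cell replicate 1, and lay between 4.16 and 5.05 over all arrays. Junb and Egr3 each had a second, dim probe, and the brighter probe stood for the gene. Differences were tested for 12094 genes at once with limma, and passing meant an adjusted p (Benjamini-Hochberg) under 0.05 with a change of at least 1 on the log2 scale (2-fold). Levels are compared between groups within a gene and not between genes.

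Between 12564 and 20497 probes were detected per array, and precision is limited by how many arrays there are. The background signal was 46.6 to 54.8 on B cell and dendritic cell arrays and 34.4 to 39.0 on all others, so this difference cannot be told apart from those groups. The labels were checked against marker genes. T cell arrays detected 6 of 6 T cell markers, B cell arrays 4 of 4 measured B cell markers, dendritic cell arrays 6 of 6 dendritic cell markers, and brain 3 of 3 neuron and 5 of 5 glia markers. In brain, Cd3d, Cd3e, Cd3g and Lat of the T cell list were undetected. The dendritic cell arrays also detected 7 of 7 granulocyte, 6 of 6 macrophage and monocyte, 4 of 4 NK cell, 2 of 2 erythroid, 3 of 4 B cell and 6 of 6 T cell markers on all 3 arrays. The summed level of the granulocyte list there was log2 15.3 to 15.8, against 7.07 to 8.73 on every other array. The dendritic cell list summed to 11.4 to 11.6 on the dendritic cell arrays, against 6.85 to 10.6 on the others. On the same dendritic cell arrays the T cell list had 11.2 to 11.7, the macrophage and monocyte list 12.9 to 13.5 and the NK cell list 12.7 to 13.0. The lists hold different probes, so these sums give no shares of cells. The B cell arrays also detected 6 of 6 T cell markers, at a summed level of log2 8.77 to 9.87 where the naive, Th1 and Th2 arrays had 14.4 to 15.2. Brain arrays detected 6 of 6 macrophage and monocyte, 4 of 4 endothelial and 2 of 2 erythroid markers. The part of these other cells in the dendritic cell, B cell and brain values below was not tested.

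Before any comparison, 3 arrays have to be named, because they stand apart from their groups in these genes. Dendritic cell replicate 3 was the lowest of its group for 9 of the 9 measured members, by 1.12 below the group mean on average. B cell replicate 3 was below its group mean for 9 of 9 and the lowest for 8 of 9, by 0.91 on average. Naive replicate 3 was the highest of its group for 6 of 9, by 0.83 above the mean on average, and the lowest for Egr2 and Egr3. Over all 12094 tested genes the median deviation of these arrays was only 0.025, -0.00031 and -0.0058, and 34.9% of genes were lowest on dendritic cell replicate 3. The median SD of the members within a group was 0.93 in naive cells, 0.84 in B cells and 0.87 in dendritic cells, where the median SD over all genes was 0.14, 0.11 and 0.17. In Th1 cells it was 0.37, in Th2 cells 0.24 and in brain 0.35, against 0.21, 0.21 and 0.11 for all genes. In each of the 7 comparisons between groups, the counts of genes that passed are therefore also given without these 3 arrays. The 3 arrays were picked after seeing these very genes. Leaving them out widens the differences of dendritic cells and B cells from naive cells for most members by construction. The larger differences, higher counts and smaller p-values of that fit are therefore no added support, and no share of all genes is given beside them.

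**Figure D1:**
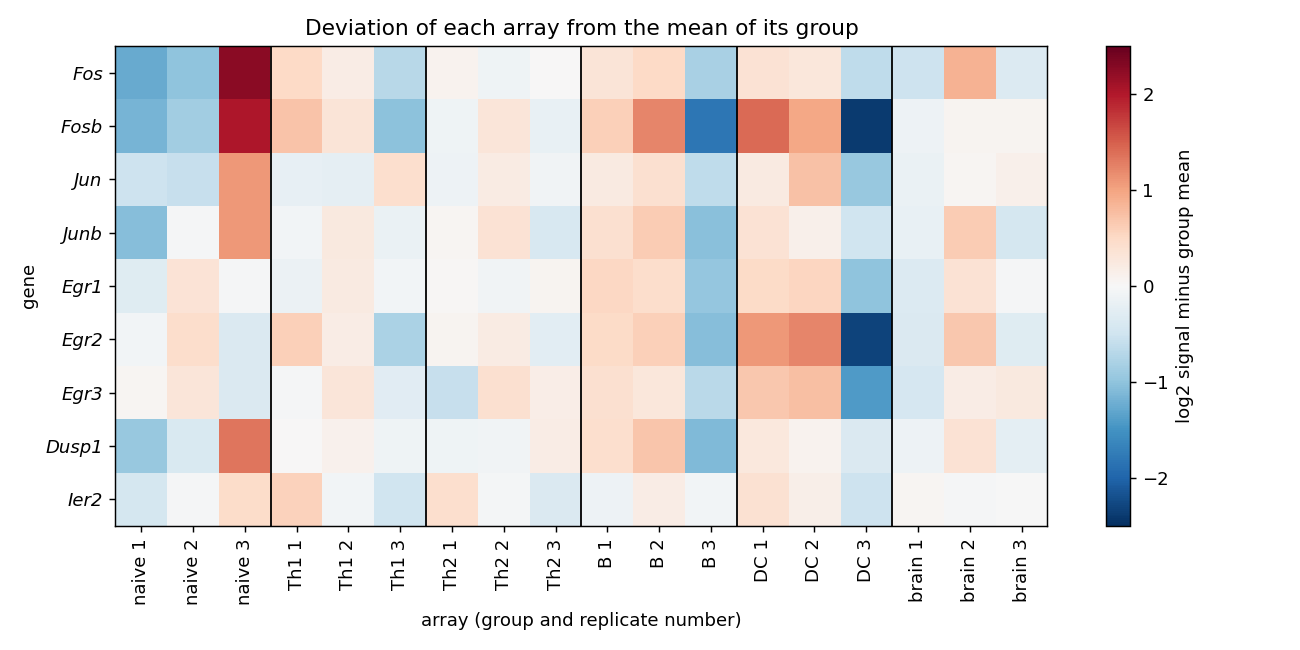
Each cell shows 1 gene (rows) on 1 array (columns, 3 per group) as its log2 signal minus the mean of its group, with red above and blue below that mean. Dendritic cell replicate 3 and B cell replicate 3 are blue for every gene, and naive replicate 3 is red for Fos, Fosb, Jun, Junb, Dusp1 and Ier2.

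Related genes were low on dendritic cell replicate 3 and B cell replicate 3 as well. On dendritic cell replicate 3, 17 of 17 measured other immediate early and AP-1 genes were the lowest of their group, and 14 of 15 measured feedback genes (phosphatases, mRNA decay factors and inhibitors induced by the same signals). Of 13 measured upstream kinases and ternary complex factors, 6 were lowest there. B cell replicate 3 was lowest for 12 of 17, 13 of 15 and 7 of 13 genes of these lists, where 33.6% of all genes were. Naive replicate 3 was highest for 8 of 17, 5 of 15 and 3 of 13, where 32.7% of all genes were. Other measures also differed on these arrays. Naive replicate 3 had a summed granulocyte list of log2 8.29 against 7.18 and 7.11 on the other 2 naive arrays, a macrophage list of 8.48 against 7.35 and 7.0, and an erythroid list of 7.88 against 6.36 and 6.58. B cell replicate 3 had a summed T cell list of 9.87 against 8.77 and 9.02, an erythroid list of 10.9 against 7.92 and 9.42, a granulocyte list of 8.73 against 7.48 and 7.86, an NK cell list of 8.39 against 7.49 and 7.70, a macrophage list of 8.44 against 7.93 and 8.05, and the lowest mean signal of its group (260.7 against 359.6 and 345.8). Dendritic cell replicate 3 had a T cell list of 11.7 against 11.2 on both other arrays, a B cell list of 10.8 against 11.8 and 11.1, a macrophage list of 12.9 against 13.2 and 13.5, and the lowest mean signal of its group (211.8 against 289.1 and 255.6). Their part in the members' values was not tested.

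**Figure D2:**
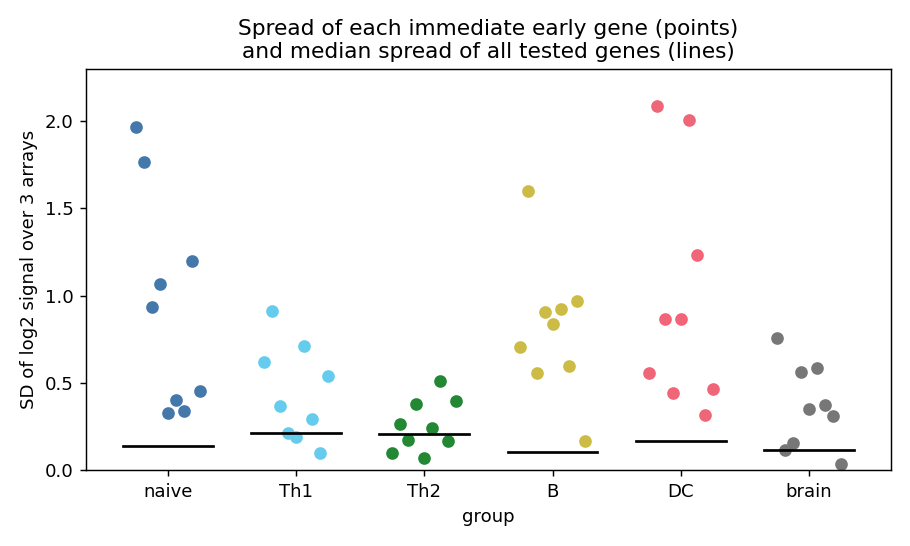
Points are the SD of log2 signal over the 3 arrays of a group for each of the 9 measured immediate early genes, and lines are the median SD of all 12094 tested genes in that group. In naive, B and dendritic cells most points lie far above the line, whereas in Th2 cells they lie around it.

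Fos, the founding partner of AP-1, was highest in dendritic cells and in B cells. Its level was 13.34, 13.28 and 12.34 on the dendritic cell arrays and 12.55, 12.72 and 11.42 on the B cell arrays. Naive cells had 8.61, 8.87 and 12.13, so that 1 naive array reached the range of B cells while the other 2 lay far below. Th1 cells had 8.43, 8.11 and 7.23, and Th2 cells 8.09, 7.90 and 8.0. Brain had 6.84, 8.24 and 7.03, which overlapped the Th1 and Th2 cells. Dendritic cells exceeded naive cells by 3.11 ± 0.69 (SE; limma adjusted p = 0.0011), with no overlap between the groups, and B cells exceeded them by 2.36 ± 0.69 (adjusted p = 0.013), with overlap. Dendritic cells and B cells themselves overlapped and did not pass (0.76, 95% interval -0.71 to 2.22). Against naive cells Fos fell in Th1 cells (-1.95 ± 0.69; adjusted p = 0.025) and in Th2 cells (-1.87 ± 0.69; adjusted p = 0.031), with all 6 arrays below every naive array. Both falls rest on naive replicate 3: without it they were -0.81 (adjusted p = 0.16) and -0.74 (adjusted p = 0.20).

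Fosb, a close relative of Fos that also pairs with Jun proteins, had the same order at the top and the widest spread. Dendritic cells had 11.32, 10.88 and 7.51 and B cells 10.02, 10.64 and 7.61, with replicate 3 of each more than 2 log2 units under the others. Naive cells had 4.74, 5.04 and 7.94, and only the last of these was detected. Th1 cells had 6.05, 5.67 and 4.31 with 2 arrays detected, Th2 cells 4.37, 4.78 and 4.28 with none, and brain 5.06, 5.25 and 5.27 with all 3. Naive replicate 3 lay above replicate 3 of both B cells and dendritic cells, so these groups overlapped. Dendritic cells exceeded naive cells by 4.0 ± 0.96 (adjusted p = 0.0021) and B cells did by 3.52 ± 0.96 (adjusted p = 0.0084). Without the 3 arrays the same differences were 6.19 and 5.41. Fosb in Th1 and Th2 cells did not pass against naive cells, at -0.56 and -1.43, and the first was 0.45 without naive replicate 3.

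**Figure D3:**
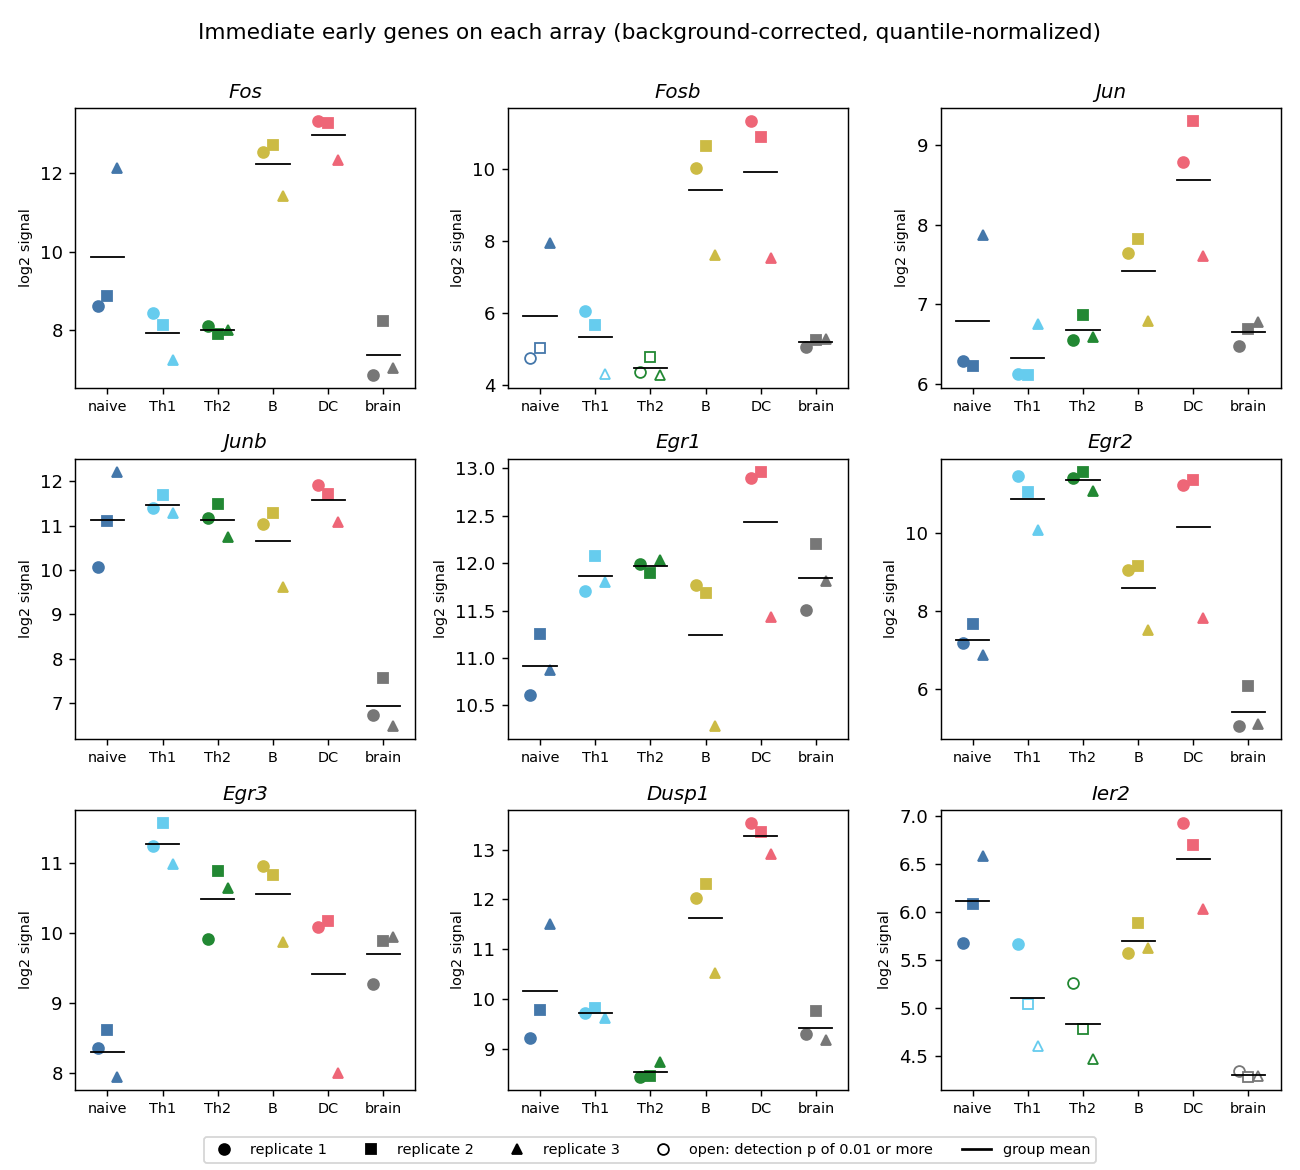
Log2 signal of the 9 measured immediate early genes on each of 18 arrays, by group; marker shape gives the replicate number, open markers are arrays with a detection p of 0.01 or more, and bars are group means. Fos, Fosb, Jun and Dusp1 are highest in dendritic cells, Egr2 and Egr3 are high in Th1 and Th2 cells, and Junb and Egr2 are lowest in brain.

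Jun, the main partner of Fos, varied less. Its level was 8.78, 9.30 and 7.61 in dendritic cells, 7.65, 7.82 and 6.78 in B cells and 6.29, 6.23 and 7.87 in naive cells. The other 3 groups lay between 6.11 and 6.87. Dendritic cells passed against naive cells (1.77 ± 0.43; adjusted p = 0.0022) and against B cells (1.15 ± 0.43; adjusted p = 0.044), although 1 dendritic cell array lay below a naive array and below 2 B cell arrays. The second of these calls was lost in several settings, with an adjusted p of 0.053 when replicate number was a block. B cells did not pass against naive cells at 0.62, but passed without naive replicate 3 (1.16; adjusted p = 0.030).

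Junb, an AP-1 subunit that is abundant in lymphocytes, was high in every immune group and low in brain. The naive arrays had 10.07, 11.11 and 12.21, Th1 cells 11.39, 11.70 and 11.29, and Th2 cells 11.18, 11.49 and 10.74. B cells had 11.04, 11.29 and 9.61 and dendritic cells 11.93, 11.70 and 11.08. Brain had 6.73, 7.56 and 6.48, so the highest brain array was below the lowest immune array. Brain differed from the mean of the immune groups by -4.27 ± 0.37 (limma adjusted p = 1.01e-08), a 19.2-fold lower signal. Among the 5 immune groups only Th1 and B cells did not overlap, with the lowest Th1 array just above the highest B cell array, and no difference between any 2 of them passed (0.82 for that pair, 95% interval -0.20 to 1.83). The second Junb probe was undetected on all 18 arrays.

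Egr1, the best known Egr factor and a common mark of recent signalling, varied over a narrower span than any other measured member except Ier2. Dendritic cells had 12.90, 12.96 and 11.43, Th1 cells 11.71, 12.08 and 11.80, Th2 cells 11.99, 11.89 and 12.03, and brain 11.51, 12.20 and 11.81. B cells had 11.77, 11.69 and 10.28 and naive cells 10.61, 11.26 and 10.88, which overlapped. Egr1 in brain was thus within the range of the immune arrays, 10.28 to 12.96 (0.15, 95% interval -0.48 to 0.79). Dendritic cells exceeded naive cells by 1.52 ± 0.39 (adjusted p = 0.0033) and B cells by 1.19 ± 0.39 (adjusted p = 0.022). Th2 cells exceeded naive cells by 1.06 ± 0.39 (adjusted p = 0.029), a 2.08-fold change just inside the threshold. Th1 cells did so by 0.95 ± 0.39 (adjusted p = 0.048), just outside it, and in both the 3 helper arrays lay above every naive array.

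Egr2, a factor known from T cells as a target of NFAT that restrains further activation, was the member with the largest change in the helper subsets. Th1 cells had 11.47, 11.05 and 10.08 and Th2 cells 11.43, 11.57 and 11.09, against 7.18, 7.68 and 6.89 in naive cells. The lowest helper array was more than 2 log2 units above the highest naive array. The changes were 3.61 ± 0.71 in Th1 cells (12.2-fold; adjusted p = 0.000335) and 4.11 ± 0.71 in Th2 cells (17.3-fold; adjusted p = 0.000103). Dendritic cells had 11.24, 11.38 and 7.83, and the last of these lay just above the naive range. They passed against naive cells (2.90 ± 0.71; adjusted p = 0.0025). B cells, at 9.06, 9.17 and 7.52, overlapped naive cells and did not pass (1.33; adjusted p = 0.17, and 0.049 with replicate number as a block). Brain had 5.06, 6.09 and 5.11, below every immune array, and differed from the immune mean by -4.22 ± 0.55 (18.7-fold lower).

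Egr3, which acts with Egr2 in T cells, rose in the helper subsets too. Naive cells had 8.35, 8.61 and 7.94, Th1 cells 11.25, 11.58 and 10.99, and Th2 cells 9.91, 10.89 and 10.66. All helper arrays lay above all naive arrays, and the changes were 2.97 ± 0.46 for Th1 (7.85-fold; adjusted p = 3.28e-05) and 2.19 ± 0.46 for Th2 cells (4.55-fold; adjusted p = 0.000678). B cells had 10.96, 10.84 and 9.88 and exceeded naive cells by 2.26 ± 0.46 (adjusted p = 0.000921) without overlap. Dendritic cells had 10.09, 10.17 and 7.99; their difference from naive cells (1.12; adjusted p = 0.054) did not pass, and did pass without dendritic cell replicate 3 (1.83; adjusted p = 0.00028) and with replicate number as a block (adjusted p = 0.027). Brain had 9.27, 9.89 and 9.95, within the immune range (-0.31, 95% interval -1.06 to 0.45). The second Egr3 probe was detected on all 3 Th1 arrays, on 1 brain array and nowhere else, at 5.34 to 6.08 in Th1 cells.

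Dusp1 set dendritic cells apart from every other group. Dendritic cells had 13.53, 13.35 and 12.91 and B cells 12.03, 12.31 and 10.51, which did not overlap. Naive cells had 9.21, 9.78 and 11.50, Th1 cells 9.72, 9.82 and 9.61, brain 9.29, 9.76 and 9.18, and Th2 cells 8.43, 8.45 and 8.72, the lowest 3 arrays of all 18. Dendritic cells exceeded naive cells by 3.10 ± 0.47 (8.58-fold; adjusted p = 3.4e-05) and B cells by 1.64 ± 0.47 (adjusted p = 0.011). B cells exceeded naive cells by 1.46 ± 0.47 (adjusted p = 0.024), with 1 B cell array below 1 naive array. Dusp1 fell in Th2 cells against naive cells by 1.63 ± 0.47 on the log2 scale (adjusted p = 0.0078), and without naive replicate 3 the difference was -0.96 (adjusted p = 0.049), under the 2-fold limit. Every Th1 array was above every Th2 array, by 1.18 ± 0.47 on average, which did not pass (adjusted p = 0.12) but did in other fits of the same difference, given with that comparison.

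Ier2 was dim throughout. Naive cells had 5.68, 6.08 and 6.58, B cells 5.57, 5.88 and 5.62 and dendritic cells 6.93, 6.70 and 6.03, all detected. Th1 cells had 5.67, 5.04 and 4.6 with 1 array detected, and Th2 cells 5.26, 4.78 and 4.47 and brain 4.34, 4.28 and 4.29 with none. Against naive cells Ier2 fell in Th1 cells by 1.01 ± 0.28 on the log2 scale (adjusted p = 0.0060). In Th2 cells it was at least 1.64-fold lower, and it passed on a fitted difference of -1.28 (limma adjusted p = 0.0011). In brain it was at least 2.12-fold lower than the mean of the 5 immune groups (adjusted p = 2.22e-05). This does not hold for each immune group by itself. Against Th1 cells alone the bound was 1.44-fold and brain did not pass. Th2 cells and brain both had no detected array, so no bound exists, and their difference of 0.53 did not pass (limma adjusted p = 0.094). Those bounds compare the brighter group's mean with the dimmest signal that counts as detected, since the other group had no detected array. Dendritic cells had every array above every B cell array, at 0.86 ± 0.28 (adjusted p = 0.024), under the 2-fold limit.

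Taking the groups in the order of their means for each gene, 7 of 9 members were highest in dendritic cells, Egr2 in Th2 cells and Egr3 in Th1 cells. Of the 45 steps between neighbouring groups, 8 passed and 37 had arrays that overlapped. The steps that passed were B cells over naive cells for Fos, Fosb and Dusp1, naive over Th2 cells for Fos, dendritic over B cells for Jun and Dusp1, B cells over brain for Junb and naive cells over brain for Egr2. No step passed for Egr1, Egr3 or Ier2. The same order and steps were not counted over all tested genes, so these counts describe the members without showing whether other genes differ.

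Against naive CD4 T cells, dendritic cells had 6 of 9 measured members higher (Fos, Fosb, Jun, Egr1, Egr2 and Dusp1) and 0 lower, where 13.2% of all tested genes were higher and 9.83% lower. In 4 of the 9 the groups did not overlap, where 58.3% of all genes had none. The median change of the members was 1.77, against -0.050 over all genes, and without the 3 arrays 8 of 9 were higher, all but Ier2 (0.92). Of 17 measured other immediate early and AP-1 genes 7 were higher and 1 lower, with a list median of 0.80. Among them Ier3, an early gene linked to cell survival, was at least 27.3-fold higher, Atf3, a stress-induced AP-1 partner, at least 21.4-fold, and Klf4, a zinc finger factor of myeloid cells, rose by 3.05 ± 0.47 (adjusted p = 4.06e-05); the lower one was Jund (-1.24). Klf6 had 0.85 and did not pass. Of 15 measured feedback genes 5 were higher, among them Gadd45b (3.17 ± 0.28), the ubiquitin editor Tnfaip3 (1.65), and the mRNA decay factor Zfp36 (1.24), and 2 were lower, Dusp10 (-2.09) and the Egr corepressor Nab2 (at least 1.86-fold). Dusp4 did not pass at 0.78. The count of 7 feedback genes fell to 3 without dendritic cell replicate 1 and to 4 without replicate 2. Of 13 measured upstream genes, Mef2c (4.92) and Map2k1 (at least 1.5-fold) were higher and the ternary complex factor Elk4 was lower (-1.67), and Mapk14, at 0.87, did not pass. Leaving out the 3 arrays, 9 other early genes were higher and 0 lower, so that the call of Jund was lost, 7 feedback genes were higher and 2 lower, and the upstream genes gave the same counts.

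Against the same naive arrays, B cells had 4 of 9 members higher (Fos, Fosb, Egr3 and Dusp1) and 0 lower, where 7.3% of all genes were higher and 6.92% lower, and in 1 of 9 the groups did not overlap, where 54% of all genes had none. The median change was 1.33 against -0.034 over all genes. The number of members fell to 2, Fosb and Egr3, when naive replicate 1, naive replicate 2 or B cell replicate 2 was left out, and was 6 without the 3 arrays, with Jun (1.46) and Egr2 (1.67) added. Of the other immediate early and AP-1 genes 1 of 17 was higher, Klf4 (1.93 ± 0.47; adjusted p = 0.0040), and 2 were lower, Fosl2 (at least 2.29-fold) and Arc (at least 1.47-fold). This count of 3 was 6 without B cell replicate 3 and 7 without the 3 arrays (5 higher and 2 lower). Atf3 was not detected in naive cells and, at 1.42, did not pass. Feedback genes were higher for 4 of 15 (Dusp4 at 2.62 ± 0.38, Dusp6, Zfp36l1 and Gadd45b) and lower for 2, Socs3 (-2.61 ± 0.25) and Dusp10 (-2.06 ± 0.20). Of 13 upstream genes Mef2c, a factor of the B lineage and of neurons, was higher by 6.65 ± 0.27, Map2k1 at least 2.15-fold, and 11 did not pass. The feedback genes gave 5 higher and 2 lower without the 3 arrays, and the upstream genes 2 higher, as before.

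**Figure D4:**
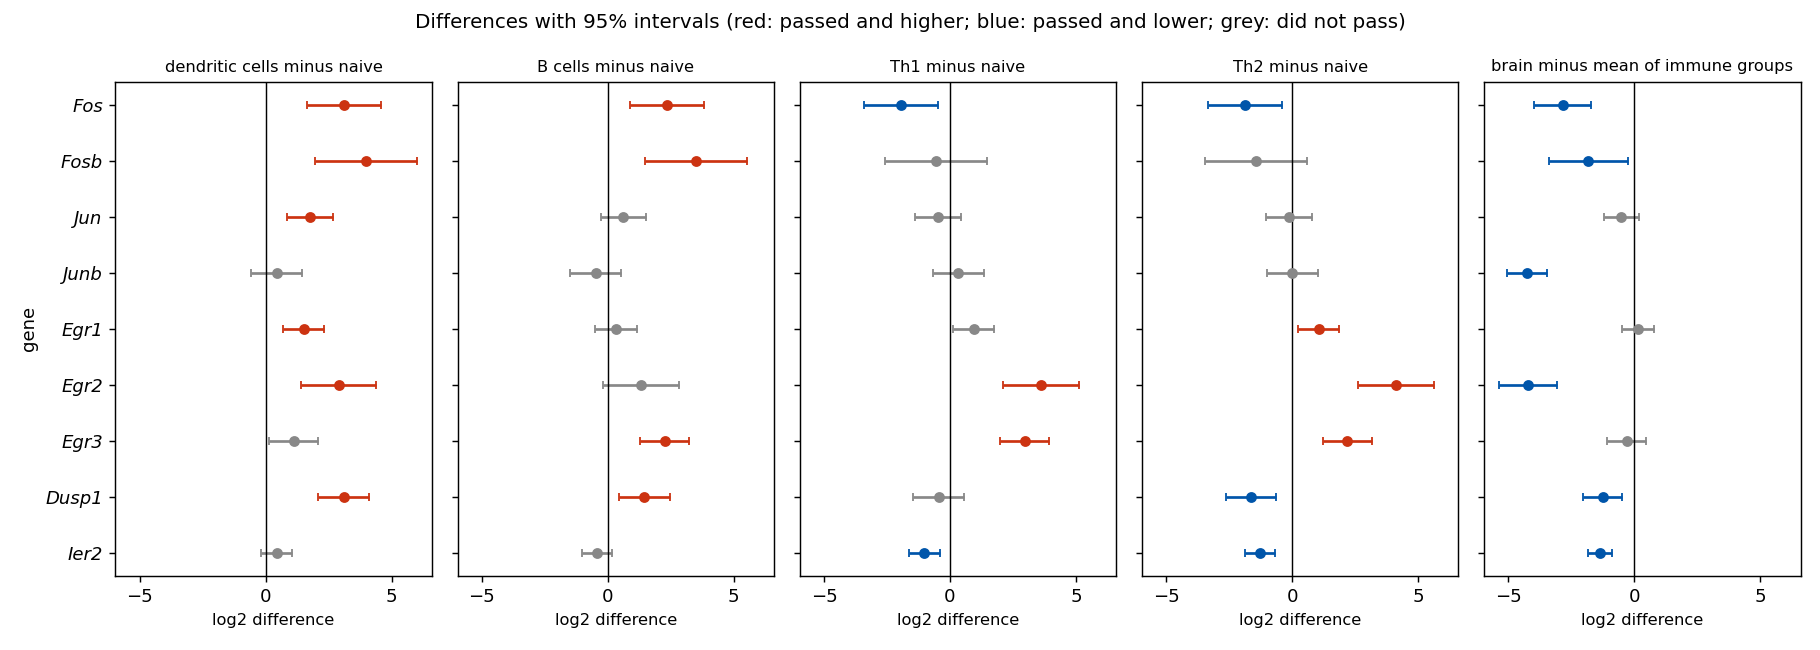
Points are the log2 difference of group means for each measured immediate early gene in 5 comparisons and bars its 95% interval from the fit; red passed and was higher, blue passed and was lower, grey did not pass. Dendritic cells have 6 red genes, Th2 cells 3 red and 3 blue, and brain 6 blue.

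Set directly against B cells, dendritic cells were higher for 3 of 9 members, Jun, Egr1 and Dusp1, and lower for 0, where 10.2% of all genes were higher and 4.53% lower. The groups did not overlap for 2 of 9, Dusp1 and Ier2, where 52.5% of all genes had none. Egr3 went the other way (-1.14; adjusted p = 0.062) and did not pass, though it did with replicate number as a block (adjusted p = 0.031). The block also brought in Egr2 (1.57; adjusted p = 0.021) and lost Jun. The count hung on single arrays: without dendritic cell replicate 3 it was 5 higher (with Egr2 at 2.72 and Ier2 at 1.12), without the 3 arrays also 5, and without B cell replicate 3 it was 1, Egr3, lower in dendritic cells (-1.49); without dendritic cell replicate 1 or 2 it was 2, Dusp1 higher and Egr3 lower. Among the other early genes Ier3 was at least 29.3-fold and Fosl2 at least 13.1-fold higher in dendritic cells, and Atf3 was higher by 3.93 ± 0.65. Of 17 such genes 5 were higher and 1 lower, Myc (-1.42), and without dendritic cell replicate 3 it was 9 higher and 1 lower; Klf4 did not pass at 1.12. Of 15 feedback genes 3 were higher (Socs3, Dusp5 and Gadd45b) and 2 lower (Dusp2 and Dusp4), while Tnfaip3 at 1.23 did not pass. Upstream, Mapk14 was higher (1.29), Elk4 (-1.49) and Mef2c (-1.73) were lower, and 10 of 13 did not pass. With the 3 arrays left out, 8 other early genes were higher and 1 lower, 6 feedback genes were higher and 1 lower, and 1 upstream gene was higher and 2 lower.

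In the helper subsets the members moved in both directions. Against naive cells, Th1 cells had 2 of 9 members higher (Egr2 and Egr3) and 2 lower (Fos and Ier2), where 13% of all genes were higher and 15.4% lower. Th2 cells had 3 higher (Egr1, Egr2 and Egr3) and 3 lower (Fos, Dusp1 and Ier2), where 12.6% were higher and 14.4% lower. The groups did not overlap for 5 and 6 of 9 members, where 56.9% and 56.6% of all genes had none. Both comparisons use the same 3 naive arrays. Leaving out naive replicate 3 took Th1 to Egr2 and Egr3 alone and Th2 to Egr2 and Egr3 higher and Ier2 lower; leaving out Th1 replicate 3 also took Th1 to the 2 Egr genes. Without the 3 arrays Th1 had 2 higher and 0 lower, and Th2 had Egr1, Egr2 and Egr3 higher and Ier2 lower. The rises of Egr2 and Egr3 in Th1 and Th2 cells passed in every alternative tried, whereas those of Egr1 and the falls of Fos, Dusp1 and Ier2 did not.

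Of 17 measured other immediate early and AP-1 genes, 8 were higher in Th1 and 9 in Th2 cells than in naive cells and 0 were lower, with list medians of 0.87 and 1.65 against -0.018 and -0.010 over all genes. Ier3 was undetected in naive cells and was at least 44.1-fold higher in Th1 and 28.9-fold in Th2 cells. Atf3 was at least 7.29-fold and 11.4-fold higher, and Nr4a3, a relative of Nr4a1, at least 7.21-fold and 3.92-fold. Myc rose by 3.23 and 3.27, Fosl2 by 3.14 and 2.82, and Batf, an AP-1 factor of helper differentiation, by 1.84 and 2.51. Not passing were Jdp2 in Th1 cells (0.87) and Klf6 in Th2 cells (-0.73). Of the feedback genes 7 of 15 were higher and 4 lower in Th1 cells, and 5 higher and 3 lower in Th2 cells. Over all genes 13% were higher and 15.4% lower in Th1 cells, and 12.6% higher and 14.4% lower in Th2 cells. The nuclear MAP kinase phosphatase Dusp4 rose by 4.90 ± 0.38 and 4.88 ± 0.38 (adjusted p = 1.05e-08 and 1.2e-08), Gadd45b by 3.51 and 3.01, Dusp5 by 2.92 and 1.86 and Dusp6 by 1.48 and 2.96. Zfp36 (-2.57 and -1.92), Socs3 (-1.57 and -1.78) and Dusp10 (-2.32 and -2.03) fell in both subsets. Ppp1r15a fell in Th1 cells (-1.29) and did not pass in Th2 cells (-1.22; adjusted p = 0.060), and Nfkbia at 0.86 did not pass in Th1 cells. The other early genes gave the same counts without the 3 arrays, and 7 feedback genes were higher and 3 lower in Th1 cells and 6 higher and 3 lower in Th2 cells.

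Of 13 measured upstream factors, 1 passed as higher and 5 as lower in Th1 cells, where 13% of all genes were higher and 15.4% lower, and 1 as higher and 4 as lower in Th2 cells, where 12.6% and 14.4% were. The list medians, 0.017 and -0.016, lay near those of all genes, and the counts were the same without the 3 arrays. The higher one in both was the kinase gene Rps6ka3 (1.63 and 1.10). Srf, whose product binds the CArG box, fell by 1.88 ± 0.10 and 1.06 ± 0.10 on the log2 scale, and its partner Elk4 by 2.01 ± 0.16 and 1.87 ± 0.16. Mapk14 fell by 1.58 and 1.60, and the JNK gene Mapk8 was at least 3.35-fold lower in Th1 cells and changed by -1.53 in Th2 cells. Mapk9 fell in Th1 cells by 1.30 and did not pass in Th2 cells at -0.89. Elk3, at 0.52, did not pass in Th1 cells.

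Between Th1 and Th2 cells 0 of 9 members passed, where 4.5% of all genes did. At an unadjusted p under 0.05 there was 1, Dusp1, and the groups did not overlap for 2, Dusp1 and Egr3 (0.79, 95% interval -0.19 to 1.76), where 22.3% of all genes had none. In the fit without the 3 arrays Dusp1 passed (1.18). Some related genes did differ. Egr4, another Egr factor, was at least 2.47-fold lower in Th1 than in Th2 cells and was detected on the 3 Th2 and 3 brain arrays and on no other. Jdp2, a repressor that pairs with AP-1 proteins, was lower in Th1 cells (-1.38 ± 0.24; adjusted p = 0.00072), and Maff was at least 1.46-fold higher in Th1 cells. Nr4a2, at 1.45, did not pass. Of 15 feedback genes 1 differed, Dusp6, lower in Th1 cells (-1.48 ± 0.21; adjusted p = 9.02e-05), and Dusp5 did not pass at 1.06. Upstream genes gave 0 of 13, with Srf under the 2-fold limit (-0.82; adjusted p = 1.75e-05). Without the 3 arrays 2 other early genes were higher and 2 lower in Th1 cells, 1 feedback gene was higher and 1 lower, and 0 upstream genes passed.

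Same-numbered Th1 and Th2 arrays deviated together from their group means, but no label says that they are paired. The Dusp1 difference depends on which arrays estimate the spread. In a fit of the 6 Th1 and Th2 arrays with replicate number as a block the difference of 1.18 passed (limma adjusted p = 0.0096), as it did in a fit of the same arrays without the block (adjusted p = 0.0074). With all 18 arrays and the block no member passed. The SD of Dusp1 was 0.10 in Th1 cells and 0.17 in Th2 cells, against 1.2 in naive cells and 0.97 in B cells.

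Brain, set against the mean of the 5 immune groups, had 6 of 9 members lower (Fos, Fosb, Junb, Egr2, Dusp1 and Ier2) and 0 higher, where 26.6% of all genes were lower and 25.7% higher, and Jun, Egr1 and Egr3 did not pass. The groups did not overlap for 3 of 9, Junb, Egr2 and Ier2, where 54.6% of all genes had none. The 15 immune arrays ran from 7.23 to 13.34 with a median of 8.87 for Fos, from 4.28 to 11.32 with a median of 6.05 for Fosb, and from 8.43 to 13.53 with a median of 9.82 for Dusp1, and the brain arrays of all 3 genes overlapped these ranges. The changes were -2.83 ± 0.53 for Fos (adjusted p = 0.00011), -1.82 ± 0.74 for Fosb (adjusted p = 0.031) and -1.25 ± 0.37 for Dusp1 (adjusted p = 0.0046). For Fosb and Dusp1 every brain array lay above every Th2 array. Fosb had 5.06 to 5.27 in brain and 4.28 to 4.78 in Th2 cells, and Dusp1 9.18 to 9.76 and 8.43 to 8.72. Neither gene passed between brain and naive, Th1 or Th2 cells, so both are lower only against the mean, dendritic cells and B cells. Jun differed by -0.51 (95% interval -1.21 to 0.19) and became 0.40 under median scaling and 0.20 on the authors' own scaled values. Without the 3 arrays the same count of 6 was lower. Against single immune groups, brain passed for 7 members against dendritic cells, 6 against B cells, 5 against naive cells, 3 against Th1 and 2 against Th2 cells, where 51.6% to 56.4% of all genes passed. All of these were lower in brain except Egr3 against naive cells, which was higher in brain (naive minus brain, -1.40; limma adjusted p = 0.011).

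Over all genes 26.6% were lower and 25.7% higher in brain, and the counts of the 3 lists here are to be read beside these shares. Of 17 other immediate early and AP-1 genes 8 were lower in brain and 3 higher. Batf was at least 20.9-fold and Myc at least 9.29-fold lower, whereas Egr4 rose by 3.74 ± 0.10 (adjusted p = 1.35e-15), Jdp2 by 2.07 and Arc, an activity-regulated synaptic gene, by 2.04. Npas4, an early gene of neurons, was detected in brain and on no immune array and, at 0.96, was under the 2-fold limit. Feedback genes were lower for 11 of 15 and higher for 0, with a list median of -2.97 against -0.15 over all genes. Dusp2, the phosphatase of haematopoietic cells, differed by -7.26 ± 0.23, Zfp36 by -5.88 ± 0.22 and Socs3 by -4.36 ± 0.19, and Nab2, at -0.98, was under the limit. Upstream genes were higher for 5 of 13 (Mef2c, Map2k1, Mapk8, Mapk9 and Map2k4) and lower for 4 (Rps6ka3, Elk3, Elk4 and Creb1), and Map2k2 did not pass at -0.99. The fit without the 3 arrays gave 12 feedback genes lower and 0 higher, and the other early genes and the upstream genes gave the same counts.

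The genes whose profile was most like the mean of the 9 measured members over the 18 arrays were Klf4 (Pearson r = 0.92), Klf6 (0.89), Klra16, Btg2, Cela2a, Cela3b, Herpud1 and Spink1 (0.87 or 0.88). These arrays form 6 groups, so r rests mostly on the group means. For deviations from the group means it was 0.93 for Klf4 and 0.90 for Klf6, and from 0.56 (Herpud1) to 0.83 (Cela2a) for the others. Klra16, Btg2, Cela2a, Cela3b and Spink1 were undetected in naive, Th1 and Th2 cells and in brain. The SD of Cela2a was 2.10 in B cells and 2.72 in dendritic cells. Likest to single members were Hspa1a for Fos (0.94), Hmga2-ps1 for Fosb (0.92), Rgs2 for Jun (0.92) and Dusp1 (0.94), Znrf2 for Junb (0.95), Ndel1 for Egr1 (0.84), Rgs1 for Egr2 (0.96), Etnk1 for Egr3 (0.94) and Slc22a5 for Ier2 (0.96). For deviations from the group means, r of these pairs ran from 0.38 (Znrf2 with Junb) to 0.89 (Rgs2 with Jun). Hspa1a, an inducible heat shock chaperone, had mean levels of 11.8 in dendritic cells, 9.45 in B cells, 6.89 in naive cells and 4.88 to 5.46 elsewhere. Rgs1, a regulator of G protein signalling, had 12.9 in Th1, 12.6 in Th2, 11.7 in dendritic, 8.55 in B and 7.70 in naive cells and 4.29 in brain. Among the members, the deviations from the group means were most alike for Junb and Dusp1 (r = 0.91), Fos and Dusp1 (0.90), Egr2 and Egr3 (0.88) and Egr1 and Egr2 (0.87), and least for Fos and Egr3 (0.19) over the same 18 arrays.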

How the data were processed

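Total RNA was extracted with TRI reagent and amplified to biotin-labelled cRNA, per the labels' protocols, and GenomeStudio is named in the submitters' processing notes without a version. The deposited intensity values, per the file headers, are mean bead signals per probe, linear and not background-subtracted, and each comes with a deposited detection p-value, per the file headers. The authors' scaled intensity values, which served as an alternative, equal these signals times 1 factor per array. No source used here gives the slide or the scan date.

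Here a normexp background correction was inferred from the detection p-values (offset of 16), the arrays were quantile-normalized, and log2 was taken with limma 3.58.1 in R 4.3.3; the offset understates folds of dim genes. Probes with 1 symbol in the platform annotation and a detection p under 0.01 on at least 3 arrays were kept, and a gene was represented by its brightest probe on average. lmFit and eBayes fitted 1 mean per group over all 18 arrays, without a block, and p-values were adjusted over 12094 genes, two-sided, in each of 7 comparisons. A lower bound on a fold sets the brighter group's mean against the lowest signal called detected. The groups came from sample titles. The series' design text calls the 3 arrays of a group biological replicates, and at most 1 value was identical between arrays of a group. Replicate numbers may pair Th1 with Th2 arrays, which no label states. The hint is that same-numbered arrays deviated together from their group means (r of 0.59, 0.32 and 0.68). No other pair of groups had all 3 over 0.1. The model was also run on simulated data, in which each gene had the same SD in all 6 groups. The members' SD differed between groups, and that setting was not simulated.

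The members and gene lists were chosen with earlier results of these data known. List genes named in the text are the up to 3 passing members with the largest change and 1 other per list and comparison, and further ones were added after their values were seen. Alternatives changed the fold threshold, the variance model, the background or its offset, the scaling, the probes kept or chosen, and the arrays fitted, with or without a replicate block and with each array left out; leaving out 3 arrays together and the fit of Th1 and Th2 arrays with a block were chosen after seeing the data. Promoters and motif shares were read with Python 3.11.15 and pandas 2.3.3, and figures drawn with matplotlib 3.10.9.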

Additional observations from a re-analysis of the deposited data

Results flagged for a closer look

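A signal lay in probes that the comparisons do not use. The second Egr3 probe was detected on 3 of 3 Th1 arrays (5.34, 6.08 and 5.73 on the log2 scale) and on 1 of 3 brain arrays, and on 0 of 3 arrays of naive cells, where it had 4.80, 4.30 and 4.80. The Nr4a1 probe was detected on 1 of 3 dendritic cell arrays, at 5.05 with a detection p of 0.0075, and on no other array.

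The change from naive cells differed between dendritic cells and B cells for 3 members, by the test of that difference (limma, adjusted over all genes): Jun by 1.15, Egr1 by 1.19 and Dusp1 by 1.64 on the log2 scale, each larger in dendritic cells. The naive arrays cancel in this difference, so these are the same 3 calls as in the direct comparison above and add no separate result. All 3 lost the call without B cell replicate 3, where the differences were 0.83, 0.70 and 1.10. Jun and Egr1 also lost it without dendritic cell replicate 1 (1.03 and 0.95) and without dendritic cell replicate 2 (0.78 and 0.92). No test for outlying samples was run, since each group has 3 arrays; the 3 arrays that stand apart were named from their deviations alone.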

How the results depend on the processing

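Of 29 calls of single members, 15 held in every setting tried: Fos, Junb and Egr2 in brain, Fosb and Egr3 in B cells, Fos, Fosb, Jun, Egr1, Egr2 and Dusp1 in dendritic cells against naive cells, and Egr2 and Egr3 in Th1 and Th2 cells. Of 1836 pairs of a member's change and a setting, 1691 kept the direction and the side of the threshold, 73 lost a call, 40 gained one and 32 turned sign. None of the 32 was past the threshold; the causes were not tested except where fewer arrays are the setting's own construction.

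Counts of members also moved. Th1 against Th2 went from 0 to 1 (Dusp1) with the authors' scaled signal, with the compared groups alone, with the 6 Th1 and Th2 arrays and a replicate block, and without the 3 arrays that stand apart. Dendritic cells against B cells went from 3 to 1 with the compared groups alone and to 5 without the 3 arrays. Th1 against naive cells went from 4 to 2 without the 3 arrays. Steps between neighbouring groups went from 8 to 5 with median scaling, without the detection filter and with the compared groups alone. Leaving out 1 array gave 2 to 5 for B cells against naive cells, 1 to 5 for dendritic cells against B cells, 2 to 5 for Th1 and 3 to 6 for Th2 cells against naive cells, 0 to 1 for Th1 against Th2, 6 to 7 for dendritic cells against naive cells, 5 to 6 for brain and 5 to 11 for the steps. With the replicate block over all arrays, the calls that changed were Egr2 in B cells against naive cells (gained, 1.33), Egr3 in dendritic cells against naive cells (gained, 1.12), and Egr2 (gained, 1.57), Egr3 (gained, -1.14) and Jun (lost, 1.15) in dendritic cells against B cells; it changed no other call.

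Signs turned with median scaling for Jun in brain (0.40), Junb (0.31) and Ier2 (0.10) in B cells, Junb in Th2 cells (-0.15), and Fos (0.17) and Egr1 (0.20) in Th1 against Th2, and with the authors' scaled signal for Jun in brain (0.20) and Ier2 in Th1 against Th2 (-0.071). Without the 3 arrays they turned for Egr1 in brain (-0.046), Junb in B cells (0.58), Fosb (0.45), Jun (0.072) and Dusp1 (0.22) in Th1 cells and Jun in Th2 cells (0.41). Leaving out 1 array turned signs within these ranges: Junb from -1.01 to 0.057 (B), -0.087 to 0.98 (dendritic), -0.20 to 0.87 (Th1) and -0.52 to 0.55 (Th2) against naive cells; Jun from -0.75 to 0.073 in Th1 and -0.41 to 0.41 in Th2 cells; Fosb from -1.14 to 0.45 and Dusp1 from -0.93 to 0.22 in Th1 cells; Fosb from -0.42 to 1.67 in dendritic cells against B cells; Fos from -0.32 to 0.27 and Ier2 from -0.019 to 0.53 in Th1 against Th2; and Egr1 from -0.028 to 0.32 in brain.

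Scaling moved all genes: the median change went from -0.15 to 0.47 (median scaling) and 0.20 (authors' signal) in brain, from -0.034 to 0.33 and -0.17 in B cells, from -0.050 to 0.044 and -0.12 in dendritic cells against naive cells, from -0.035 to -0.23 and 0.028 in dendritic cells against B cells, and from -0.013 to 0.068 and -0.13 in Th1 against Th2. Of all calls, those higher made up 49.2% in brain (69.6% with median scaling and 64.3% with the authors' signal), 51.3% in B cells (84.2% and 56.4%), 57.3% in dendritic cells against naive cells (75.5% and 59.7%), 69.3% in dendritic cells against B cells (42.6% and 64.7%), 45.9% in Th1 cells (36.5% and 35.2%), 46.7% in Th2 cells (27.3% and 37.9%) and 48.5% in Th1 against Th2 (70.3% and 50.7%).

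Counts over all genes moved by over 1.5 times for Th1 against Th2 (544, against 315 with an offset of 50 and 345 with the authors' signal) and B cells against naive cells (1720, against 2631 with median scaling). Without the fold threshold they were 10464 in brain, 4235 in B cells, 6166 in dendritic cells against naive cells, 4622 in dendritic cells against B cells, 6504 in Th1 cells, 6338 in Th2 cells and 1670 in Th1 against Th2. Among the other immediate early and AP-1 factors the count in Th1 against Th2 went from 3 to 1 with an offset of 50, no background correction or the authors' signal, and in B cells from 3 to 1 with an offset of 50, to 5 with median scaling and to 7 without the 3 arrays. Upstream genes went from 2 to 4 in B cells with median scaling and from 5 to 3 in Th2 cells with an offset of 50. Feedback genes in Th1 against Th2 went from 1 to 2 in 5 settings. With no fold threshold, counts in dendritic against B cells went from 6 to 11 (other early), 5 to 9 (feedback) and 3 to 5 (upstream), in dendritic against naive cells from 8 to 13 (other early) and 3 to 7 (upstream), in Th1 against Th2 from 3 to 5 (other early) and 0 to 5 (upstream), and in B cells from 2 to 6 (upstream).

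Fosb, Ier2 and Nr4a1 lie near background on most arrays, so their folds are the least certain; with an offset of 50 or no background correction Ier2 lost its 3 calls. Nr4a1 has values only without the detection filter (-0.18 in brain, 0.26 in dendritic cells against naive cells).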
